A study of Mus musculus with 54 samples.

Results

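The 38 genes described here drive or mark DNA replication and mitosis, and they were taken by name from a table of 23481 genes, all 38 of them found and all passing the filter on low values in every comparison. They divide by role into 16 replication members (Ccne1, Ccne2, Mcm2, Mcm3, Mcm4, Mcm5, Mcm6, Mcm7, Pcna, Rrm1, Rrm2, Tyms, Cdc6, Cdt1, Gmnn and E2f1) and 22 mitosis members (Mki67, Top2a, Ccnb1, Ccnb2, Ccna2, Cdk1, Aurka, Aurkb, Bub1, Bub1b, Plk1, Birc5, Cdc20, Cenpa, Cenpe, Cenpf, Kif11, Kif20a, Kif23, Tpx2, Foxm1 and Ube2c). RNA-seq was measured in 4T1, a mouse mammary carcinoma cell line that spreads from the mammary gland to the lung. The specimens were 2 lung metastases (Lung_1 and Lung_2) and 2 orthotopic tumors (Tumor_1 and Tumor_2), set against 23 clonal lines that each began from 1 sorted cell and were grown in culture medium. Clones E and T are labelled intravasating, that is, able to enter blood vessels when followed in a pool of clones, and the other 21 clones non-intravasating. From every clone and specimen a pair of libraries, A and B, was sequenced. The labels name no transgene, treatment or host strain, they do not say which clones seeded the specimens or whether host cells were removed, and each clone is a single line.

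Cells copy their DNA in S phase and divide it in mitosis, and the genes for each step are switched on in waves. Before S phase, Cdc6 and Cdt1 load the Mcm2 to Mcm7 helicase onto origins, and geminin, encoded by Gmnn, blocks Cdt1 afterwards. E2F factors and cyclin E, made from Ccne1 and Ccne2, carry cells into S phase, where Pcna holds the polymerases on DNA and Rrm1, Rrm2 and Tyms supply nucleotides. In the later wave, Cdk1 with cyclins A and B, the Aurora kinases, Plk1, spindle motors and the ubiquitin enzyme Ube2c with Cdc20 drive mitosis, and Mki67 and Top2a are common markers of dividing tumor cells.

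The promoters of the early and late members differed in the motifs they hold. E2F factors bind sites near TTTCCCGC, TTTCGCGC, TTTGCCGC or TTTGGCGC, and the repressor complex of the late wave binds the cell cycle homology region, here TTTGAA, often beside CCAAT boxes of the factor NF-Y. In the windows from 250 bases before to 50 bases after the start, read on both strands in RefSeq sequence of GRCm38.p6, 30 members had an entry, 14 promoters for 13 replication members and 17 for mitosis members. One of the 4 E2F words was found in 6 of 14 promoters of replication members (Cdc6, Cdt1, Mcm3, Mcm5, Mcm6 and Mcm7) and in 1 of 17 promoters of mitosis members (Cdk1), which is 42.9% and 5.9%, against 2.3% of all 32851 promoters. TTTGAA was found in 7.1% of the replication promoters (Mcm2) and 76.5% of the mitosis promoters, against 17.9% of all. CCAAT was found in 64.3% of the replication promoters and 94.1% of the mitosis promoters, against 37.4% of all. A match is a description of these letters and does not show that a factor binds there.

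**Figure D1:**
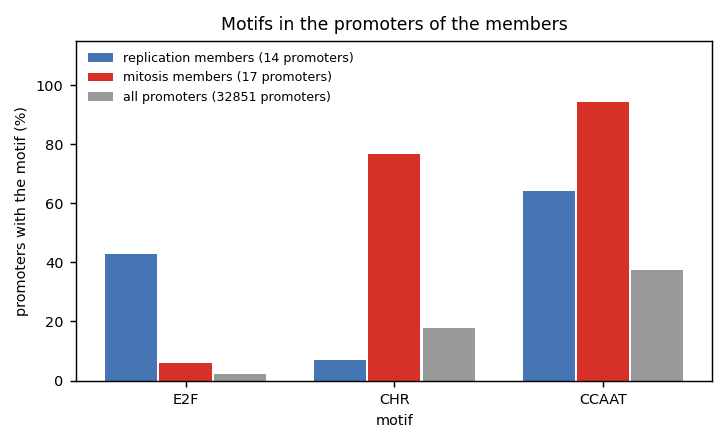
The bars give the percent of promoters that hold each motif on either strand, in 14 promoters of replication members, 17 of mitosis members and all 32851 promoters of the table. The E2F words are most frequent in the replication promoters (42.9%), and TTTGAA in the mitosis promoters (76.5%).

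Of the members whose values are given in full below, 4 promoters are shown because they carry the early motif, both, or the late one. Capitals mark the E2F words, TTTGAA and CCAAT on either strand, and in Mcm7 the last E2F word and a CCAAT box share 1 base. Mcm7 lies on the minus strand at chr5:138171834-138172133, Cdk1 on the minus strand at chr10:69352863-69353162, Ccnb2 on the minus strand at chr9:70421505-70421804 and Mki67 on the minus strand at chr7:135716330-135716629. Each is printed 5′ to 3′ along its gene.
Mcm7: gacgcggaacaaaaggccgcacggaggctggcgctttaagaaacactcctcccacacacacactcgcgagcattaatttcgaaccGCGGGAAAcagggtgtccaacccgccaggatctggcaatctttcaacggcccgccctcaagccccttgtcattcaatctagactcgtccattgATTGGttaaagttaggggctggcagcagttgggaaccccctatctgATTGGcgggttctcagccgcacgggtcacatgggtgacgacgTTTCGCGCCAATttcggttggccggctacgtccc
Cdk1: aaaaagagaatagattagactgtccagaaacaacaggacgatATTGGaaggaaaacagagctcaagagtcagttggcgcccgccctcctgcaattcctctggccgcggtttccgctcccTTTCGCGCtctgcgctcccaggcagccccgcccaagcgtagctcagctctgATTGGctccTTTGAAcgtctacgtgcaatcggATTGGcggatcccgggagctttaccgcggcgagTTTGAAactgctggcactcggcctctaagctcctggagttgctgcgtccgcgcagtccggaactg
Ccnb2: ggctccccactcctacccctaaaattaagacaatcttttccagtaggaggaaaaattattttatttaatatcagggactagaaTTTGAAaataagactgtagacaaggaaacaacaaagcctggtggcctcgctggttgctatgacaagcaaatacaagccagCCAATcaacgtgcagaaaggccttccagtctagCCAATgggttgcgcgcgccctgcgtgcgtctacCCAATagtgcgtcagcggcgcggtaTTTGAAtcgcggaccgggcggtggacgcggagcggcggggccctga
Mki67: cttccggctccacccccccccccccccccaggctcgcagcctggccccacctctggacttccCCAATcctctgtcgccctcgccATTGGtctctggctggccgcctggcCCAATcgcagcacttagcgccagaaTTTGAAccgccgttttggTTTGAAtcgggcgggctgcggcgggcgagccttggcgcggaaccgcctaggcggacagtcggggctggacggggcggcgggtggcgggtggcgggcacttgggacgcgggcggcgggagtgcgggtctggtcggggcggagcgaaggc
The Mcm7 promoter shown holds E2F words but no TTTGAA, Cdk1 holds both, and Ccnb2 and Mki67 hold TTTGAA without an E2F word. The table has another promoter of Mcm7, at chr5:138171217-138171516, with 1 CCAAT and no E2F word. Among the members lower in the tumors or lung metastases below, Mcm7 (in 1 of its 2 promoters), Cdt1 and Cdk1 carried an E2F word in this window, E2f1, Pcna, Rrm1, Ccnb1 and Birc5 did not, and Mcm4 and Gmnn had no entry. The E2f1 window, chr2:154569377-154569676 on the minus strand, lies inside the gene as annotated by GENCODE, whose 5′ end is at 154569892. Its lack of an E2F word, which enters the share of replication promoters above, therefore does not describe the sequence upstream of that end. Both Mcm7 windows also lie inside their gene, whose 5′ end in GENCODE is at 138172422. The E2F words of Mcm7, which enter the same share, therefore lie downstream of that end.

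The depth, in recovered reads of a library, was 16327693 to 20368740 in the lung metastases, 12183058 to 17369960 in the tumors, 15581390 to 31609870 in clones E and T and 8849257 to 27304778 in the other clones. Some libraries stood apart. The A libraries of the lung metastases had 20278 and 19868 genes with a read, against 14130 to 16807 in the clones. Library B of Tumor_2 had the lowest mean over the replication members of all 54 libraries, -0.77 on the log2 scale relative to the mean of the clones, against -0.34 in its library A. Of 62 host cell markers in the table, 24 stood above all 23 clones in both lung metastases and 18 did so in both tumors. Of the genes tested against the clones, 9.02% and 4.97% did so. The summed normalized counts of 8 macrophage markers were 1157 and 2525 in the lung metastases and 531 and 685 in the tumors, against 7.47 to 132.8 in the clones, while Hba-a1, Hba-a2 and Hbb-b1 of red cells were at 0 in all of them. Those of 7 fibroblast markers were 1628 and 4165 in the lung metastases and 647 and 747 in the tumors, against 118.4 to 1801 in the clones. Most of these sums was Pdgfra, with 1492 and 3394 counts in the lung metastases and 569 and 512 in the tumors. The cultured clones had 117.4 to 1756 counts of Pdgfra, so the sum is not a measure of host fibroblasts. Of the 7 markers, 2 stood above all clones in both lung metastases and 3 in both tumors. The 7 epithelial carcinoma markers summed to 15958 and 22583 in the lung metastases, 27407 and 30501 in the tumors and 16659 to 92790 in the clones. The part of host cells in the differences below was not tested, and in bulk RNA fewer cells of a type and less RNA per cell cannot be told apart.

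Levels were compared between members per kilobase of the longest transcript, in the median clone. Top2a was highest with 4108 normalized counts per kb, followed by Mki67 with 2951, the DNA clamp gene Pcna with 2930.1 and Ccna2 (cyclin A) with 2302. Both cyclin E genes were lowest, Ccne1 with 75.8 and Ccne2 with 48.1 counts per kb, below Kif20a, a motor of cytokinesis, with 348. All 6 helicase genes lay between Mcm2 with 703 and Mcm3 with 1491 counts per kb. Neighbours in this order such as Mki67 and Pcna differed by less than their spread between clones.

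The design asks which genes set the intravasating clones apart, and the members were called no more and no less often than genes at large. Of 13637 genes tested, limma with Benjamini-Hochberg adjustment called 0% higher and 0% lower in clones E and T than in the other 21, and accordingly 0 of 38 members either way, with none at an unadjusted p under 0.05 against 109 of all genes. The median member stood 0.07 higher on the log2 scale (range -0.11 to 0.39) and 30 of 38 were positive, while the median of all genes was 0. Under the rule in the series' design, which asks that E and T each exceed 11 or more of the 21 other lines, 0 members were higher where 2.14% of all genes were, and 0 were lower where 1.61% were, shares that come to under 1 of 38 members.

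For each of the 4 members with the smallest p, clone T was above all 21 other clones and clone E was not. Top2a, the topoisomerase that untangles DNA before division, was counted 23466 times in E and 29976 times in T after normalization, where the other clones had a median of 21267 and reached 27229 (log2 difference 0.38 ± 0.20, SE). Cdc6, which loads the helicase, stood at 1779 counts for E and 2850.1 for T, where the others had a median of 1815 and reached 2489 (0.35 ± 0.20). Clone E was above 17 of the 21 others for Top2a and above 10 for Cdc6, and without clone T the differences were 0.20 and 0.02.

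Cdc20, the activator of the ubiquitin ligase that ends mitosis, stood at 1732 counts for E and 2534 for T, where the others had a median of 1645 and reached 2376 (0.39 ± 0.24). Ccne2, a cyclin E gene, stood at 128 counts for E and 261 for T, where the others had a median of 145 and reached 224 (0.29 ± 0.18), and without clone T its difference was -0.10. Clone E was above 15 of the 21 others for Cdc20 and above 8 for Ccne2. For all 4 the adjusted p was 1. Over all members, clone T was above all 21 others for 4 and clone E for 0. In contrasts between single clones, T was higher than at least 11 others for 9 members and E for 1, the helicase gene Mcm7, and neither was lower than as many others for any member. The share of all genes was not computed for T or E alone, so these counts cannot be read as a trait of the members.

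Nearly all members differed among the 23 clones. By limma's F-test, which rests on the spread between the 2 libraries of a clone, 37 of 38 members passed the adjusted threshold, where 95.1% of all genes did. The exception was Mki67, whose SD was 0.28 between libraries of a clone and 0.23 between clones (adjusted p = 0.119). The median SD between clones was 0.26 for members, against 0.29 for all genes tested and 0.29 for genes of a like level. The labels do not say whether the 2 libraries come from separate cultures, so these p-values measure only the spread between libraries, which may be technical.

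The most variable member was Ccne1, with an SD of 0.43. Its normalized counts ran from 82.4 in clone W to 388 in clone O, with 357 in clone G and a median of 152. Clones O, G and S, with 278 counts, stood well above the rest, where the next clone had 204. The nucleotide enzyme gene Rrm2 followed with an SD of 0.39 and ran from 2810.4 counts in clone F to 8725 in clone U. E2f1 had an SD of 0.38 and ran from 802 counts in clone M to 2544 in clone O.

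The helicase gene Mcm5 (SD 0.37) was low in 1 clone, with 1664 counts in clone G, 2737 in the next lowest, W, and 5843 in N, the highest. Cdc20 (SD 0.34) was also lowest in clone G, with 847 counts, followed by clone S with 1024.5, and highest in clone T with 2534. Ccna2 ran from 4309.8 counts in M to 11238 in U (SD 0.33). At the other end, Aurkb and Mcm4 had an SD of 0.15, Birc5, which encodes survivin, of 0.16, and Ccnb1, a cyclin B gene, of 0.17. Aurkb ran from 2139.9 counts in clone C to 3262 in clone N, a 1.52-fold range.

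Clone O was the highest clone for 11 members and clone U for 6, and clone G was the lowest for 8 and clone M for 6. How often these clones were the extreme ones over all genes was not computed. These counts therefore cannot be read as a trait of the members. Averaged over the 38 members and set against the mean of the clones, O stood at 0.25 and D at 0.18 on the log2 scale, against -0.23 in G and -0.20 in M. The ends of this order held in both libraries, 0.29 and 0.22 in O and -0.23 and -0.22 in G. Over the 23 clones, the mean of the replication members and that of the mitosis members had a Pearson r of 0.67 and a Spearman rho of 0.61, and r was 0.56 without the 2 clones farthest from the median. The 2 means share libraries and depth, and the mean of all members had an r of 0.41 with the reads of the clone (rho 0.44, and r 0.54 without the 2 farthest).

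The members did not vary as 1 block. Between 703 pairs of members the median r over the 23 clones was 0.16, with a range of -0.60 to 0.91, where pairs of all genes with at least 50 counts had a median of 0. It was 0.12 within the replication members, 0.22 within the mitosis members and 0.13 across. Pcna (r = 0.71), the spindle assembly factor Tpx2 (0.70) and its partner kinase gene Aurka (0.67) followed the mean of the other members most closely, and Mcm4 (-0.25), Birc5 (-0.13) and Gmnn (-0.05) least.

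What the closest pairs shared was their chromosome, a feature looked at after these values had been seen. Of the 12 pairs with the highest r, 8 lay on the same chromosome, while 45 of all 703 pairs do. Bub1b, a spindle checkpoint kinase gene, and Tpx2 had an r of 0.91 and both lie on chromosome 2. Cdc6 and Top2a lie 0.069 Mb apart on chromosome 11 and had an r of 0.86, with Cdc6 from the early wave and Top2a from the late one. Mcm5 and Cdt1 on chromosome 8 had an r of 0.83, and Ccna2 and Cenpe, a kinetochore motor gene, on chromosome 3 had an r of 0.77.

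Members on the same chromosome had a median r of 0.54 and those on different ones 0.14. Among genes outside the cell cycle lists the medians were 0.24 on the same chromosome and -0.01 on different ones, so both sharing a chromosome and being a member went with a higher r. The levels of neighbouring genes moved alongside. Each member was set against the median of the genes outside the cell cycle lists on its own chromosome, and r over the clones was at least 0.5 for 71.1% of members and 49.6% of the other genes.

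In clone G, Mcm5 stood at -1.31 and Cdt1 at -0.68 relative to the mean of the clones, and the median of the other genes on chromosome 8 was -0.62, the lowest of any clone. In clone O, the 7 members on chromosome 2 (Pcna, E2f1, Aurka, Bub1, Bub1b, Tpx2 and Ube2c) averaged 0.63, and chromosome 2 stood at 0.43, the highest of any clone. On chromosome 3 clone M was lowest for members (-0.65) and for the chromosome (-0.41), and clone U highest for both (0.63 and 0.38). The DNA copy number of the clones was not measured here, and its part in these values was not tested.

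The high values of clone T split along this line. Ccne2 and Cdc20 on chromosome 4 stood 0.65 and 0.62 above the mean of the clones, and the genes within 5 Mb of them had medians of 0.40 and 0.37. Chromosome 4 as a whole was highest in clone T. Cdc6 and Top2a stood 0.65 and 0.52 higher, where the genes within 5 Mb had a median of 0.04 for each. When the median of its 5 Mb neighbourhood was subtracted from every member, the median r was 0.25 for pairs on the same chromosome and 0.26 for pairs on different ones.

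**Figure D2:**
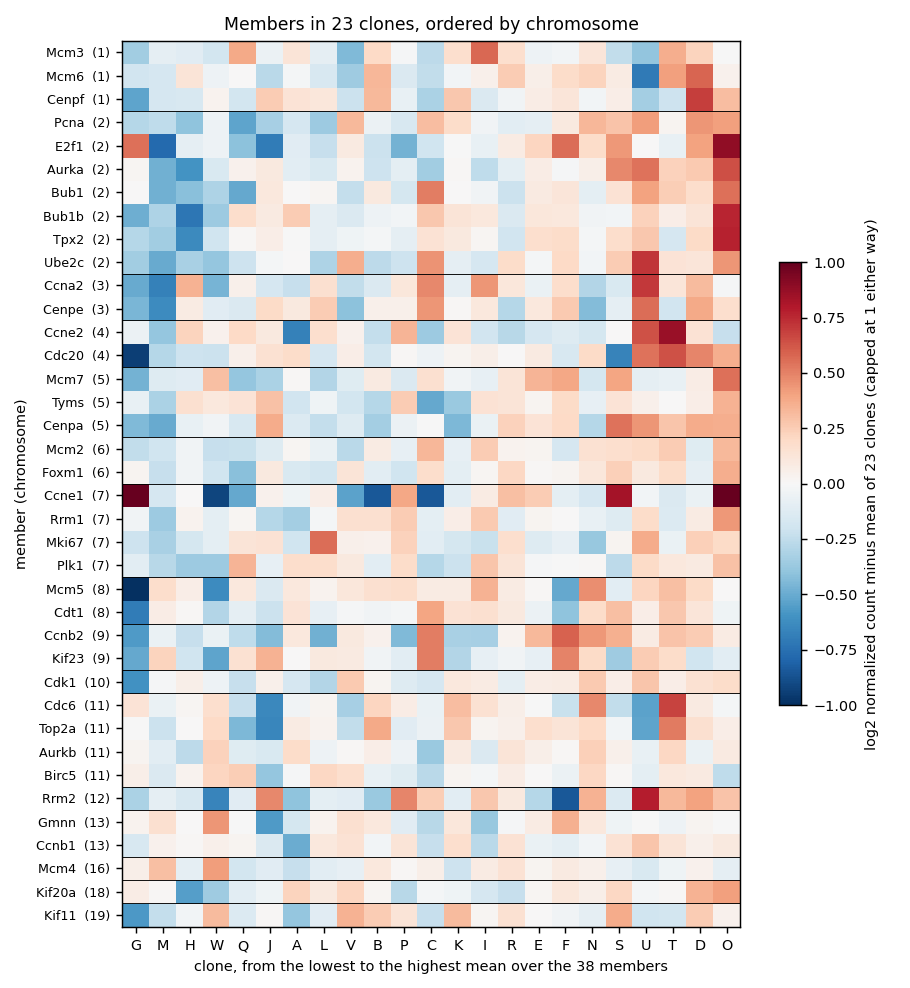
Each cell gives a member's log2 normalized count in 1 clone minus its mean over the 23 clones, with members grouped by chromosome (in brackets) and clones in order of their mean over all members. Clone O is red across chromosome 2, clone G is blue for Mcm5 and Cdt1 on chromosome 8, and clone T is red for Ccne2 and Cdc20 on chromosome 4.

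Genes outside the cell cycle lists were ranked by r with the mean of the standardised members over the 23 clones. Of 10486 genes compared, 50 had an r of at least 0.7 and 73 of at most -0.7. The 10 highest were Elp4 (0.80), the condensin gene Ncapd2 (0.80), Jmjd7 (0.79), Pnrc2 (0.79), the spindle protein gene Fam83d (0.79), Pramef8 (0.78), the tubulin gene Tubb4b (0.77), Ube2e3 (0.77), the linker histone gene H1f0 (0.77) and Reck (0.76), a membrane inhibitor of matrix proteases. The 5 lowest were the DNA repair nuclease gene Ercc4 (-0.85), the SUMO protease genes Senp5 (-0.84) and Senp2 (-0.83), the replication fork gene Donson (-0.81) and Rab32 (-0.81), a small GTPase of vesicle traffic. Of the highest, 5 lie on chromosome 2 and 3 on chromosome 4, and 4 of the 5 lowest lie on chromosome 16. H1f0 ran from 2464 counts in clone G to 28102 in the highest clone, and Rab32 from 25.1 in clone O to 769 in clone G.

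In the lung metastases, 6 replication genes and 2 mitosis genes were lower than in the clones, and most mitosis genes were not called. Of 14235 genes tested, limma called 12.4% higher and 6.34% lower than in the 23 clones. Of the replication members, 1 of 16 rose and 6 fell, and of the mitosis members 0 of 22 rose and 2 fell. The median difference was -0.43 for the replication members and -0.05 for the mitosis members, against 0.06 for all genes.

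E2f1, the transcription factor of the early wave, fell furthest. It had 538 and 350 normalized counts in the libraries of Lung_1 and 473 and 775 in those of Lung_2, against 686 to 2657 with a median of 1385 in the 46 clone libraries. Both lung metastases, with 444 and 624 counts averaged over libraries, were below all 23 clones, whose lowest had 802 (log2 difference -1.31 ± 0.27, SE; limma, adjusted p = 0.00109). Rrm1, the large subunit of ribonucleotide reductase, had 2952 and 3205 counts in Lung_1 and 3079 and 4012 in Lung_2, against 4408 to 8279 with a median of 5826 in clone libraries. No lung library reached the lowest clone library for Rrm1 (-0.83 ± 0.15; adjusted p = 0.000162).

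Gmnn, encoding geminin, averaged 708 ± 29.2 counts in lung metastases (SD, n = 2) and 1136 ± 164 in clones (n = 23), with a difference of -0.62 (adjusted p = 0.00453). Pcna averaged 2996 ± 269 counts in lung metastases and 4698 ± 954 in clones (-0.61; adjusted p = 0.0366). Mcm7 averaged 2991 ± 104 counts in lung metastases and 4584 ± 868 in clones (-0.58; adjusted p = 0.0279), and Mcm4 3694 ± 139 and 4974 ± 568 (-0.42; adjusted p = 0.0174). For E2f1, Rrm1, Gmnn, Pcna, Mcm7 and Mcm4 alike, both lung metastases were below every clone, as were 5.64% of all genes.

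Of the mitosis members, Birc5 had 3942 and 3581 counts in Lung_1 and 3032 and 4229 in Lung_2, against 4147 to 7326 with a median of 5577 in clone libraries (-0.58 ± 0.13; adjusted p = 0.00148). Its unit means of 3761 and 3631 counts were below all clones. Cdk1, the kinase that starts mitosis, averaged 3563 ± 169 counts in lung metastases and 5338 ± 700.1 in clones (-0.56; adjusted p = 0.00795), and clone G, the lowest with 3477, lay between Lung_1 with 3443 and Lung_2 with 3683. The member that rose was Ccne2, with 242 and 282 counts in Lung_1 and 240.1 and 210.3 in Lung_2, against 81.3 to 292 with a median of 145 in clone libraries (0.57 ± 0.18; adjusted p = 0.0263). Clone T, with 261 counts, stood within the range of the lung metastases for Ccne2. The genes within 5 Mb of Ccne2 had a median of 0.20 in the lung metastases against the clones.

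Without the A libraries of the lung metastases, 4 replication and 3 mitosis members fell and Ccne2 still rose. With only 1 of the lung metastases in the fit, 2 members fell, Rrm1 and Birc5 with Lung_2 alone and E2f1 and Rrm1 with Lung_1 alone, and none rose.

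**Figure D3:**
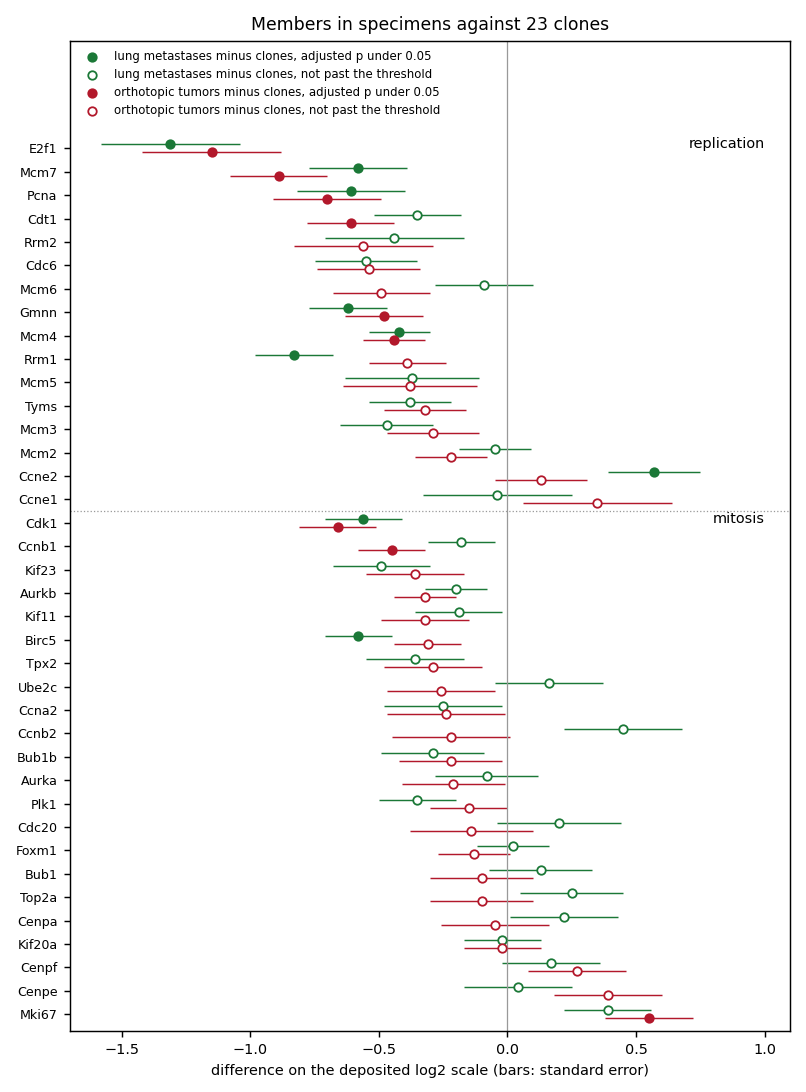
Points give each member's difference on the deposited log2 scale, lung metastases minus clones in green and orthotopic tumors minus clones in red, with standard errors as bars and filled points where the adjusted limma p was under 0.05. Of the filled points, 8 of 9 lie left of 0 in each comparison, and the filled points right of 0 are Ccne2 in the lung metastases and Mki67 in the tumors.

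In the orthotopic tumors, 6 replication genes and 2 mitosis genes were lower than in the clones, and Mki67 was higher. Of all genes, limma called 5.71% higher and 1.75% lower than in the clones. Of the replication members 0 of 16 rose and 6 fell, and of the mitosis members 1 of 22 rose and 2 fell. The median difference was -0.46 for the replication members and -0.21 for the mitosis members, against 0.05 for all genes. The tumors and the lung metastases were set against the same 23 clones, so their values are given side by side and are not independent.

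E2f1 had 761 and 768 counts in the libraries of Tumor_1 and 346 and 556 in those of Tumor_2, and both tumors were below every clone (-1.15 ± 0.27, SE; adjusted p = 0.00838). Mcm7 had 2446 and 2786 counts in Tumor_1 and 2684 and 1807 in Tumor_2, against 3006 to 6696 with a median of 4273 in clone libraries. No tumor library reached the clones for Mcm7 (-0.89 ± 0.19; adjusted p = 0.00269). Pcna averaged 2977 ± 265 counts in tumors (SD, n = 2) and 4698 ± 954 in clones (n = 23; -0.70, adjusted p = 0.0357), and Mcm4 3626 ± 305 and 4974 ± 568 (-0.44, adjusted p = 0.0244). Both tumors were below every clone for E2f1, Mcm7, Pcna and Mcm4, as were 2.01% of all genes.

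Cdt1, the helicase loader, averaged 1595 ± 123 counts in tumors and 2497 ± 383 in clones (-0.61, adjusted p = 0.0237). Gmnn averaged 795 ± 117 counts in tumors and 1136 ± 164 in clones (-0.48, adjusted p = 0.049), and the genes within 5 Mb of Gmnn had a median of -0.47 in the same comparison. Over the clones, though, Gmnn had an r of -0.02 with the median of these neighbours. The median of chromosome 13 as a whole was -0.13 in the tumors. Of the mitosis members, Cdk1 averaged 3382 ± 164 counts in tumors and 5338 ± 700.1 in clones (-0.66, adjusted p = 0.00539). Ccnb1, its partner cyclin gene, averaged 2023 ± 127 counts in tumors and 2766 ± 314 in clones (-0.45, adjusted p = 0.0314). For these 4 genes at least 1 clone, among them clone G for Cdk1 and Cdt1, stood within or below the range of the tumors.

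The member that rose was Mki67, the marker most used to count dividing cells in tumors. It had 45766 and 39099 counts in Tumor_1 and 38315 and 59832 in Tumor_2, against 19463 to 52522 with a median of 30153 in clone libraries (0.55 ± 0.17; adjusted p = 0.049). The highest value was that of library B of Tumor_2, and Tumor_1, with 42432 counts over both libraries, lay within the range of the clones, whose highest was clone L with 45599.7. The same library was highest of the 4 tumor libraries for the kinetochore genes Cenpe, with 16106 counts against 8559 to 11027 in the other tumor libraries, and Cenpf, with 13540 against 8047 to 10882. Mki67, Cenpe and Cenpf have the longest transcripts of the members, with 10061, 7910 and 11130 bases. Across the 38 members the difference of the tumors from the clones had an r of 0.40 with log2 transcript length (0.16 for the lung metastases), against 0.12 over 10087 genes for either.

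These calls were read again without library B of Tumor_2. Without it, E2f1 (-1.3) and Mcm7 (-0.75) still fell, the other 6 members did not pass the threshold with differences of -0.27 to -0.54, and Mki67 did not pass with 0.39. The median difference of the 38 members was -0.21 without that library. Without Tumor_1, E2f1 and Mcm7 fell and without Tumor_2 no member did, with a median of -0.33 and -0.18.

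**Figure D4:**
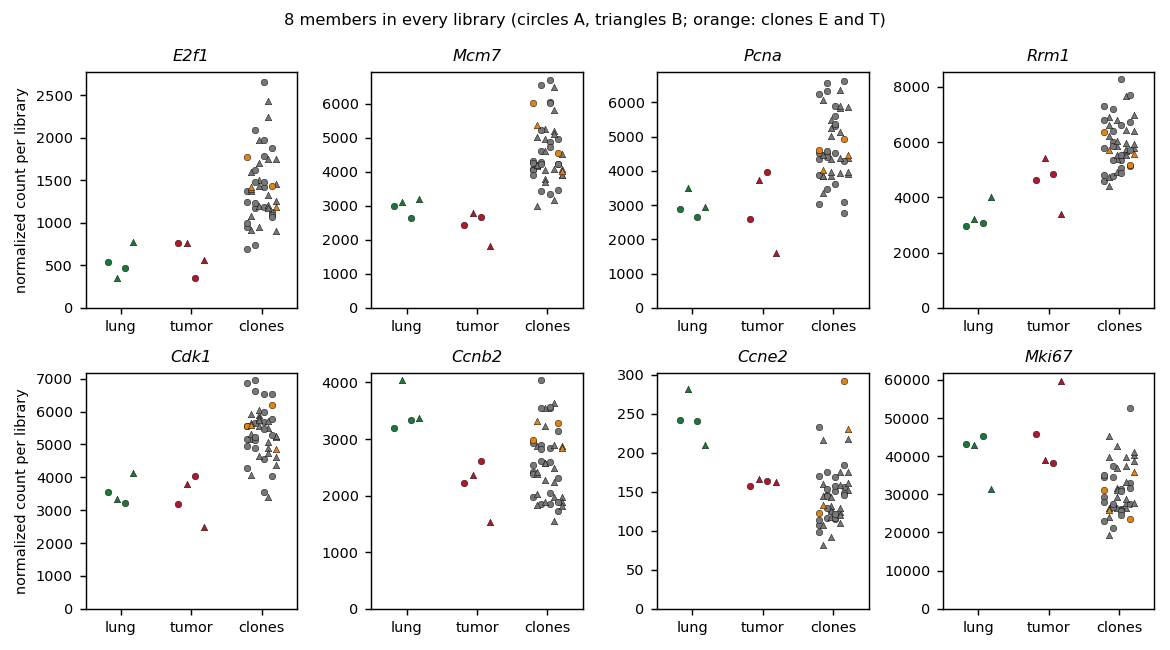
Normalized counts per library of 8 members in lung metastases, orthotopic tumors and clones, with circles for library A, triangles for library B and clones E and T in orange. Most specimen libraries lie near or below the lowest clone libraries for E2f1 and Mcm7, and library B of Tumor_2 is the lowest tumor library for Mcm7, Pcna, Rrm1, Cdk1 and Ccnb2 and the highest for Mki67.

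The specimens were below all clones for the mean of the replication members and within the clones for that of the mitosis members, a difference described here and not tested. Averaged over the 16 replication members and set against the mean of the clones, Lung_1 stood at -0.35, Lung_2 at -0.47, Tumor_1 at -0.32 and Tumor_2 at -0.55, all lower than clone J with -0.17, the lowest of the 23 clones. Averaged over the 22 mitosis members, the specimens stood at -0.05, -0.09, -0.11 and -0.19, all under the mean of the clones but inside their range, which ran from -0.29 in clone G to 0.26 in clone O. The replication mean minus the mitosis mean was -0.30 and -0.38 in the lung metastases and -0.21 and -0.37 in the tumors, and -0.18 to 0.17 in the clones. Library A of Tumor_2 had -0.34 for replication and -0.09 for mitosis, so the replication mean was the lower one in that library too.

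The same means were taken with position and length in view. With the median of each member's 5 Mb neighbourhood subtracted, the replication mean was -0.33 and -0.39 in the lung metastases and -0.29 and -0.50 in the tumors, against -0.19 in the lowest clone. The median transcript was 3193 bases for replication and 3544 bases for mitosis members. The 19 mitosis members no longer than the longest replication member (5475 bases) had a median difference of -0.18 in the lung metastases and -0.22 in the tumors.

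**Figure D5:**
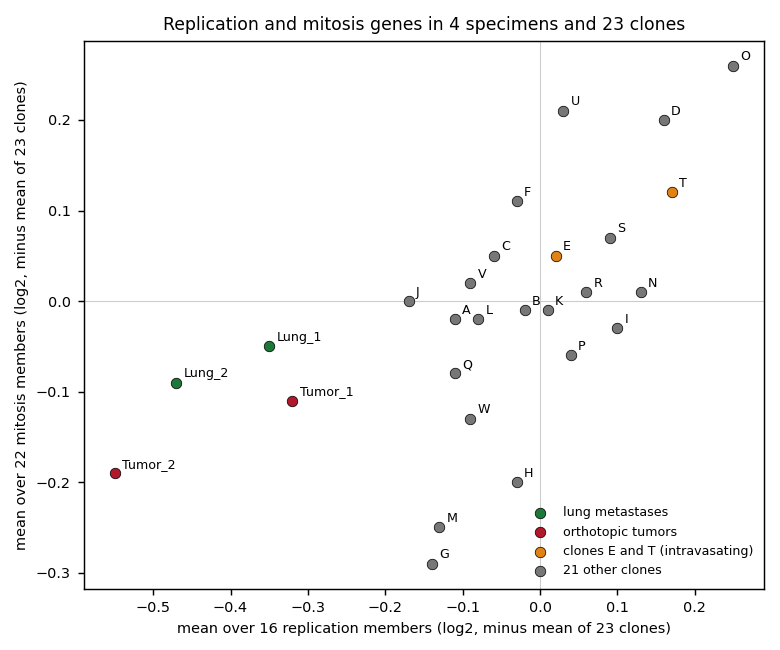
Each point is a specimen or clone, with the mean over 16 replication members on the x axis and over 22 mitosis members on the y axis, both on the log2 scale minus the mean of the 23 clones. The 4 specimens lie left of all clones on the x axis (-0.32 to -0.55) and within the clones on the y axis.

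Other genes of the same processes, from lists not used to choose the members, were read in the same fits. These lists too were chosen with earlier results of these data known, and the specimens are the same, so their counts are not independent of those above. Of 37 further replication genes, 0 rose and 6 fell in the lung metastases, with a median of -0.20, and 0 rose and 4 fell in the tumors, with a median of -0.24. Fen1, the flap nuclease of lagging strand synthesis, fell by 0.88 in the lung metastases (adjusted p = 0.000691), and the chromatin assembly factor gene Chaf1a by 0.63, the methylation reader gene Uhrf1 by 0.60 and the single-strand binding gene Rpa1 by 0.59. In the tumors Uhrf1 fell by 0.63, the helicase assembly factor gene Mcm10 by 0.55, the clamp loader gene Rfc3 by 0.46 and the histone mRNA binding gene Slbp by 0.43. Of 52 further mitosis genes, 1 rose and 3 fell in the lung metastases (median -0.06), and 0 rose and 2 fell in the tumors (median -0.08). Over all genes 12.4% were called higher and 6.34% lower in the lung metastases, and 5.71% and 1.75% in the tumors. In the lung metastases the further mitosis genes were thus called no more often than genes at large.

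In the lung metastases, Incenp, a partner of Aurora B, fell by 0.83, the cohesin protector gene Cdca5 by 0.78 and the late wave activator gene Mybl2 by 0.72, and the kinetochore scaffold gene Casc5 was 0.53 higher (adjusted p = 0.0375). In the tumors the kinase gene Pbk fell by 0.79 and Cdca5 by 0.60.

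These further calls also rest on few libraries. In the tumors, Uhrf1 (-0.59), Rfc3 (-0.33), Slbp (-0.36), Pbk (-0.63) and Cdca5 (-0.47) did not pass without library B of Tumor_2 and Mcm10 (-0.60) did, and none of the 6 passed with either tumor alone or with the A libraries alone. In the lung metastases, Incenp passed with either metastasis alone, Fen1 with Lung_2 alone and Cdca5 with Lung_1 alone, while Chaf1a, Uhrf1 (-0.41 with Lung_1 alone), Rpa1, Mybl2 and Casc5 passed with neither. Without the A libraries of the lung metastases, Rpa1 (-0.52) and Casc5 (0.40) did not pass.

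Among 20 regulators of the entry into the cycle, 1 rose and 1 fell in the lung metastases and 0 of either in the tumors. Rb1, the retinoblastoma protein gene that restrains E2F factors, averaged 742 counts in the lung metastases and 279 in the clones (1.30 ± 0.31, SE; adjusted p = 0.00418), with both lung metastases above all clones. E2f3, an activating E2F gene, fell by 0.60 (adjusted p = 0.00654). Of 9 inhibitors of the cycle tested, 2 rose in the lung metastases and 0 in the tumors. Over all genes 12.4% were called higher and 6.34% lower in the lung metastases. With lists of 20 and 9 genes, these counts cannot be read as a trait of the regulators or inhibitors. The stress gene Gadd45a averaged 874 counts in lung metastases and 263 in clones (1.54 ± 0.36; adjusted p = 0.00353), and the kinase inhibitor gene Cdkn2c was 0.91 ± 0.30 higher (adjusted p = 0.0338). With either lung metastasis alone in the fit, Rb1, E2f3 and Cdkn2c did not pass, and Gadd45a passed with Lung_2 alone (2.04) and not with Lung_1 alone (1.03). Among the checkpoint and repair genes, Brca2 rose (0.63) and Timeless fell (-0.71) in the lung metastases, and 0 were called in the tumors. Neither passed with 1 lung metastasis alone, and Brca2 (0.53) did not pass without the A libraries of the lung metastases.

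Between the specimens, the lung metastases differed from the tumors in a few members of each wave. In this comparison of 2 against 2 specimens limma called 16.6% of 13702 genes higher and 14.8% lower, and 4 of 38 members rose and 2 fell, a smaller share than in the background. Ccnb2, a cyclin B gene, had 3187 and 4043 counts in Lung_1 and 3334 and 3374 in Lung_2, against 2220.4 and 2362 in Tumor_1 and 2612 and 1540.2 in Tumor_2. Every lung library was above every tumor library (0.68 ± 0.12, SE; adjusted p = 0.00369). Ccne2 averaged 243 ± 25.7 counts in lung metastases and 162 ± 1.07 in tumors (SD, n = 2 each; 0.45, adjusted p = 0.0241).

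Ube2c averaged 4881 ± 326 counts in lung metastases and 3732 ± 166 in tumors (0.42, adjusted p = 0.0314), and Mcm6 5199 ± 540 and 3921 ± 421 (0.40, adjusted p = 0.0484). Rrm1 fell by 0.45, with 3312 ± 330.2 counts in lung metastases and 4566 ± 632 in tumors (adjusted p = 0.0391), and Ccne1 by 0.39, with 152 ± 8.51 and 218 ± 22.7 (adjusted p = 0.044). Both cyclin E genes were called here, in opposite directions. Without library B of Tumor_2, Ccnb2 (0.49) and Ccne2 (0.44) still rose and 4 members fell, while Ube2c (0.14) and Mcm6 (0.29) did not pass. With the A libraries alone Ube2c stood at 0.02. Of these 6 members, Ccnb2 passed with each specimen left out in turn and the others did not.

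Of the other lists, 5 of 37 replication genes rose and 5 fell in the lung metastases against the tumors, led by Gins2 (0.68), a helicase subunit gene, and Fen1 (-0.64), Cdc7 (-0.49) and Dnmt1 (0.43). Of 52 mitosis genes, 8 rose and 4 fell, led by Mybl2 (-0.62), Pttg1 (-0.59), the securin gene, Incenp (-0.56) and Mastl (0.56). Over all genes in this comparison 16.6% were called higher and 14.8% lower, so these replication and mitosis lists were called no more often than genes at large. Of 20 regulators of entry, 4 rose and 4 fell. Rb1 was 1.39 higher and its relative Rbl2 0.75 higher, and Ccnd2, a cyclin D gene, was 1.14 lower and Myc 0.69 lower. Of 9 inhibitors, 4 rose, among them Cdkn2c (1.05), Cdkn2d (0.91) and Ccng2 (0.73), and 2 fell, among them the antiproliferative gene Tob1 (-0.91). Among the checkpoint and repair genes, Chek2 (0.53), Tipin (0.43) and Brca2 (0.41) rose. Without library B of Tumor_2, Cdc7 (-0.18), Incenp (-0.39) and Tipin (0.31) did not pass, and Cdc7 stood at -0.02 with the A libraries alone. Without the A libraries of the lung metastases, Dnmt1 (0.42), Myc (-0.60), Tipin (0.41) and Brca2 (0.31) did not pass. Of the genes named here, Rb1, Rbl2 and Cdkn2c passed with each specimen left out in turn, and the others lost their call without Tumor_1, Tumor_2 or both.

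Some members share sequence with other genes. In the GENCODE annotation of GRCm38, 9 of 38 members overlap an exon of another gene, 7 of them on the opposite strand, among them Mcm7 (Ap4m1 and Cops6), Ccne2 (Ints8), Cdc20 (Elovl1) and Ube2c (Tnnc2). Pcna, Ccnb1, Ccnb2 and Tyms have pseudogenes that bear their names. The strand setting of the counting is not given in the sources used here, so reads of overlapping genes, and of these copies, cannot be told apart.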

How the data were processed

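The authors deposited 1 table of log2 values for 23481 genes in 54 libraries; the values have the form of DESeq's variance-stabilised log2 scale, and the submitters' processing notes name Bowtie2, HTSeq, DESeq and mm10, with versions and strand setting not given in the sources used here. Per the labels' protocols, cDNA was amplified from 100 ng of RNA and read in 76-base reads. A gene without reads sits at 5.03. Inverting the scale gave normalized counts, all whole multiples of 1 read (tolerance 0.01; 100.0% of values). Because the values are log2, no count test was the main test.

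The mean of 2 libraries gave 1 value per clone or specimen, tested with limma 3.58.1 (R 4.3.3) with a variance trend and Benjamini-Hochberg adjustment over all genes that reached 10 normalized counts in 2 or more libraries of a comparison, threshold 0.05. Tumors, lung metastases and clones shared 1 fit, and lung metastases and tumors were compared in a fit of the 4 specimens. The fits were checked on simulated data. Python 3.11.15 served for descriptions. Values in full are given for members past the threshold (at most 8 each way, or the 4 with the smallest p), the 6 most and 4 least variable among clones, up to 4 called genes per other list, and the 10 highest and 5 lowest genes by likeness. The members and lists were chosen with earlier results of these data known. Depth limits the precision of low members such as Ccne1 and Ccne2. The checkpoint and repair list is reported here in part.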

Additional observations from a re-analysis of the deposited data

How the results depend on the processing

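No member was called in the intravasating clones under any alternative run, and Ccne2 there ranged from -0.1 without clone T to 0.68 without clone E. In the tumors against the clones, members called higher were 0 with log2(normalized count + 1), with no filter on low values, with library A only, with library B only, with only the compared groups in the fit and without library B of Tumor_2 (chosen after seeing the data), and 0 to 0 leaving out each tumor. Members called lower were 3 with upper-quartile rescaling, 2 with library A only and 2 without library B of Tumor_2, and 0 to 2 leaving out each tumor. In the lung metastases against the clones, members called higher were 2 with upper-quartile rescaling, 0 with library B only and 0 to 0 leaving out each metastasis, and members called lower were 5, 4 and 2 to 2 in the same order. Upper-quartile rescaling moved the median of all genes to 0.12 in the tumors and 0.14 in the lung metastases, with 1091 higher and 127 lower against 813 and 249 as reported, and 2206 and 600 against 1759 and 903. The median member then stood at -0.20 and -0.12. In the lung metastases against the tumors, members higher and lower were 1 and 0 with no filter, 0 and 2 with library A only, 0 and 0 with library B only (median 0.17), 0 and 0 in the fit of all 27 units, 2 and 1 without libraries A of the lung metastases (chosen after seeing the data) and 2 and 4 without library B of Tumor_2, and 1 was lower with upper-quartile rescaling. Leaving out each specimen gave 1 to 6 higher and 0 to 1 lower. A lone specimen was assumed to vary like the other groups. The cause of these changes was not tested. Same-numbered specimens had an r of -0.0986 between deviations, which is 1 value. Libraries A of clone pairs had a median r of 0.0802, with a range of -0.502 to 0.637 over 253 pairs. These values cannot settle whether samples of the same number or letter share more than that label. With the specimen number as replicate block, 4 members were higher and 2 lower (median 0.06), and with the library letter as block 37 members differed among clones and 0 passed the rule on E and T.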
